A study of Mus musculus with 2 samples.

Results

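Imprinted genes were examined in mouse embryonic stem cells (mESCs) without Terc, the RNA subunit of telomerase. The 49 genes were taken by name from a list of well-known imprinted genes, and all 49 had a column among the 38458 gene columns of both count tables. They lie in 19 clusters or single loci. By general knowledge 23 are expressed from the maternal and 26 from the paternal allele, and 14 of the 49 are imprinted only in some tissues or isoforms. The cells came from the line DKO741, recovered after both Terc alleles of E14 mESCs had been targeted, so the results describe a single line. PD100 cells (100 passages by the label) were harvested before the onset of alternative lengthening of telomeres (ALT). PD800 cells (800 passages) were stable survivors that maintained telomeres by ALT. Both carried the Terc deletion, and both were grown without feeder cells for experiments, although mouse embryonic fibroblasts served as feeders for maintenance. Single cells were encapsulated with inDrops, which labels every captured transcript by a unique molecular identifier (UMI), and each time point had 1 library. Library and time point cannot be told apart, and no test was possible. Every interval below is a 95% interval for counting error only.

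An imprinted gene is expressed mainly from the copy inherited from 1 parent. The choice is set in the germ line by DNA methylation at an imprinting control region, which usually governs a whole cluster and gives genes of opposite parental expression side by side. In the early embryo and in stem cells the mark is guarded by the zinc finger protein ZFP57, which binds the methylated hexamer TGCCGC and recruits TRIM28 and SETDB1. Many imprinted genes act on fetal and placental growth, and cultured mESCs are known to lose or gain imprints. The counts here do not separate the parental alleles. The parental strain 129/Ola is inbred, and no allele was read.

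The cells with at least 1000 UMIs and at most 20% mitochondrial counts numbered 814 in PD100 (1826233 UMIs) and 900 in PD800 (2580963 UMIs), with medians of 2151 and 2701.5 UMIs per cell. The libraries shared 8 cell barcodes. Mitochondrial UMIs made up a median of 1.23% of a PD100 cell and 4.42% of a PD800 cell. All 15 stem cell markers were detected in each library. Their summed level was 12280 CPM (UMIs scaled to the same library total) in PD100 and 12875 CPM in PD800. Most of each sum was Dppa5a, with 16145 of 22426 UMIs in PD100 and 24974 of 33229 in PD800. By log2 ratio, PD800 over PD100, Klf4 (1.69), Esrrb (1.51), Tbx3 (1.16) and Nanog (1.00) were past 2-fold higher. The other markers differed by less than 2-fold, with Dppa4 lowest at -0.98. Of the 17 endoderm markers, 15 were detected in each library, and their sum was 1060 CPM in PD100 and 160 CPM in PD800, with the yolk sac gene Afp at 0 in both, Ttr at 0 in PD100 and the endoderm factor Gata6 at 0 in PD800. The 16 trophoblast markers summed to 405 CPM and 57.7 CPM. Nearly all of the PD100 sum came from the keratins Krt7, Krt8 and Krt18, whereas Cdx2, a defining trophoblast factor, had 0 UMIs in PD100. The rarer markers went both ways: Gcm1 had 9 PD100 and 29 PD800 UMIs, Eomes 4 and 15, and Gata2 7 and 3. The 17 fibroblast markers summed to 125 CPM in each library, mostly from Fn1, with 0 and 2 UMIs of Col1a1. Terc had 0 UMIs in either library, but its RNA carries no long poly(A) tail, so this checks little.

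Promoter sequences are shown for 4 genes that the results turn on: Meg3 and Dlk1, a reciprocally expressed pair of which Meg3 was higher in PD800, and Phlda2 and Snrpn, the most counted of the genes that were lower. Each is a RefSeq window of 300 bases around a transcript start on GRCm38.p6, written 5′ to 3′ on the strand of the gene, with matches to TGCCGC or its reverse complement GCGGCA in capitals. The Meg3 window is chr12:109540746-109541045 (plus strand), the Dlk1 window chr12:109452573-109452872 (plus strand), the Phlda2 window chr7:143502475-143502774 (minus strand) and the Snrpn window chr7:60005150-60005449 (minus strand).
Meg3: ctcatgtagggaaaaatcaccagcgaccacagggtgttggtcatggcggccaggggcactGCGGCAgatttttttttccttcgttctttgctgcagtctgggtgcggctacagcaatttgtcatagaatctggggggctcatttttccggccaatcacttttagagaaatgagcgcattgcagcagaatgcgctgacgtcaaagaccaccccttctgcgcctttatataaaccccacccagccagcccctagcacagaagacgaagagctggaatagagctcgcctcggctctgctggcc
Dlk1: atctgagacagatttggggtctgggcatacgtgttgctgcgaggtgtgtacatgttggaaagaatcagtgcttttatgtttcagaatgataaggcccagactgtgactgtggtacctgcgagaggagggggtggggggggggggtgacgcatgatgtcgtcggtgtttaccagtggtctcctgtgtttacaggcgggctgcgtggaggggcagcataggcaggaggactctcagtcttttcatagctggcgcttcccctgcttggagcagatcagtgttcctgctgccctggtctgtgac
Phlda2: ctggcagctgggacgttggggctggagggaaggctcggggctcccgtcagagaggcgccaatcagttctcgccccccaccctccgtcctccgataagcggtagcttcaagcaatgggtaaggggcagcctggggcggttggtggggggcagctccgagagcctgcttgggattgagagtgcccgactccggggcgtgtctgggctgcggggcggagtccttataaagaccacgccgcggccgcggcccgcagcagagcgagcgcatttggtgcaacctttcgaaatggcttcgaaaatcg
Snrpn: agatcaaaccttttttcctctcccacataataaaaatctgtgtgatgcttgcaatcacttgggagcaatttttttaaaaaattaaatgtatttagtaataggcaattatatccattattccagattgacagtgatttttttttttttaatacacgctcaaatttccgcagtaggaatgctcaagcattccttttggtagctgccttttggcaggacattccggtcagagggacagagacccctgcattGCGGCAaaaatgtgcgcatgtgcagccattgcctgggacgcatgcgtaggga
The Meg3 and Snrpn windows shown each held 1 match and the Dlk1 and Phlda2 windows held 0. Of several windows of a gene, the one with the most CG dinucleotides is shown. Meg3 has 2 windows and Snrpn 4, and in each case the window shown is the only one of them with a match. Windows were found for 38 of the 49 genes. Of their 55 windows, 15 (27.3%) held the hexamer on either strand, and of all 32851 windows 3813 (11.6%) did. The windows of imprinted genes had a median of 15 CG dinucleotides, against 7 over all windows, and the hexamer itself contains 1. A match is a description of these letters and not a binding site. H19, Cdkn1c, Kcnq1, Nap1l4, Rtl1, Peg10, Sgce, Impact, Nespas, Peg13 and Trappc9 had no entry.

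The imprinted genes differed in both directions between PD100 and PD800. The maternally expressed RNAs of the Dlk1 and Meg3 cluster were higher in PD800. The maternally expressed genes H19, Cdkn1c and Phlda2 of distal chromosome 7 were lower, and the abundant genes Cd81 and Gnas differed by less than 2-fold. Together the 49 genes held 5317 UMIs (2911 CPM) in PD100 and 8182 UMIs (3170 CPM) in PD800. Of the 49, 22 had at least 50 UMIs over both libraries and are called tested here, as are 6984 of all genes. Ratios are log2 of CPM, PD800 over PD100, and a gene is called where the ratio passes 2-fold. Among the 22 tested imprinted genes 4 were called higher (Meg3, Rian, Mirg and Inpp5f), beside 9.22% of all tested genes. Meg3, Rian and Mirg lie in 1 cluster on the same strand, so their calls are not independent. Another 7 were called lower (H19, Cdkn1c, Phlda2, Impact, Peg10, Snrpn and Zdbf2), beside 16.9% of all tested genes. The median log2 ratio was 0.12 (-1.16 to 0.59) over the imprinted genes and -0.34 over all tested genes. This contrast depends on the minimum of UMIs: the median of the imprinted genes was -0.12 with at least 20 UMIs, and with at least 1 UMI it was -0.34 against -0.33 over all genes. Relative to the median of all tested genes, 4 were called higher (13.9% of all tested genes) and 5 lower (7.79%), since Snrpn and Zdbf2 then differed by less than 2-fold. With median-of-ratios scaling, which moved the median of all tested genes to 0.13, 6 imprinted genes were called higher, with Gnas and Nnat added, and 4 lower, with Peg10, Snrpn and Zdbf2 lost. The shares of all tested genes were then 16.5% and 5.78%.

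**Figure D1:**
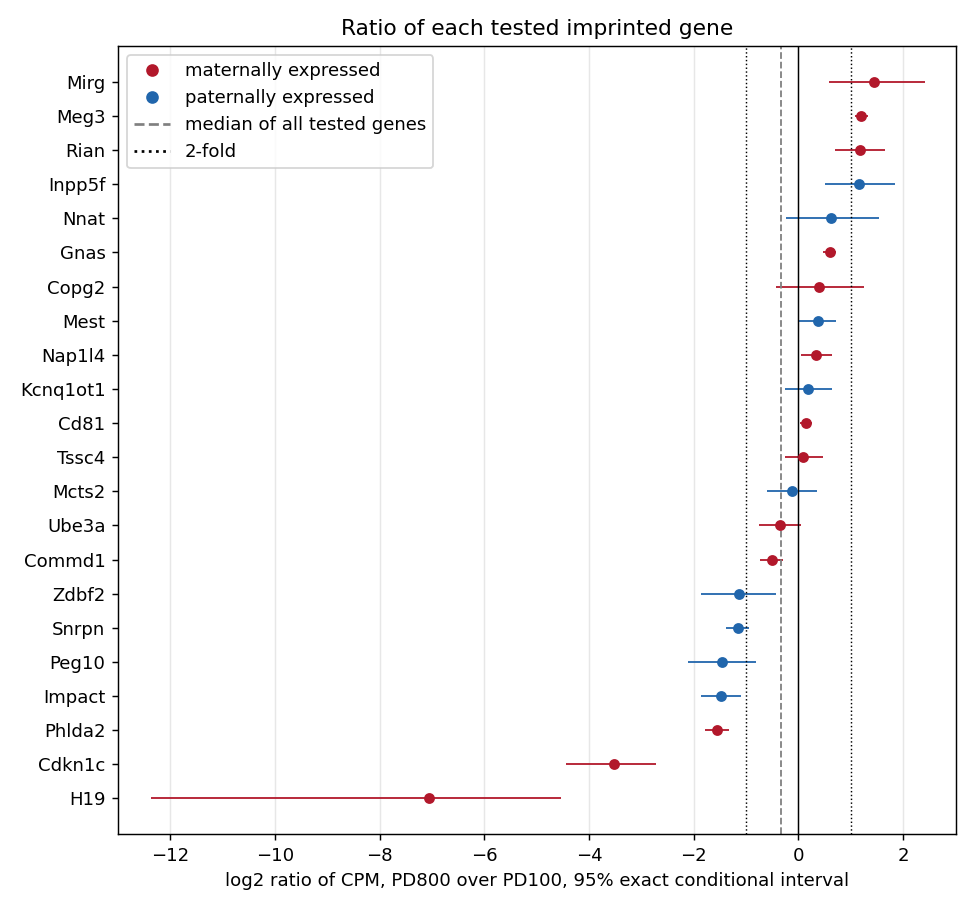
Log2 ratio of CPM, PD800 over PD100, for the 22 imprinted genes with at least 50 UMIs, with 95% exact conditional intervals (1 library each, counting error only), coloured by the parental allele known to be expressed. The maternal RNAs Mirg, Meg3 and Rian sit at the top beyond 2-fold, H19 and Cdkn1c lie farthest to the left at -7.05 and -3.52, and the dashed line marks the median of all tested genes at -0.34.

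By parental allele the picture was mixed (9.22% of all tested genes were called higher and 16.9% lower). Of the 23 maternally expressed genes 13 were tested, with 3 called higher, 3 called lower and a median log2 ratio of 0.14 (-1.56 to 1.17). Of the 26 paternally expressed genes 9 were tested, with 1 called higher, 4 called lower and a median of -0.12 (-1.45 to 0.62). The intervals of these medians overlap widely, and the paternal median was 0.35 with median-of-ratios scaling and -1.16 over genes with at least 200 UMIs, so no direction was read from it. Each of the 6 tested maternal genes that are imprinted in most tissues was past 2-fold, with 3 on either side. The 3 higher were Meg3, Rian and Mirg of 1 cluster. The 3 lower were H19, Cdkn1c and Phlda2 of distal chromosome 7, so the 6 are not independent. Of the 8 tested paternal genes that are imprinted in most tissues 0 were called higher and 4 lower, with a median of -0.63 (-1.47 to 0.62). Of the 8 tested genes imprinted only in some tissues or isoforms 1 was called higher and 0 lower.

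**Figure D2:**
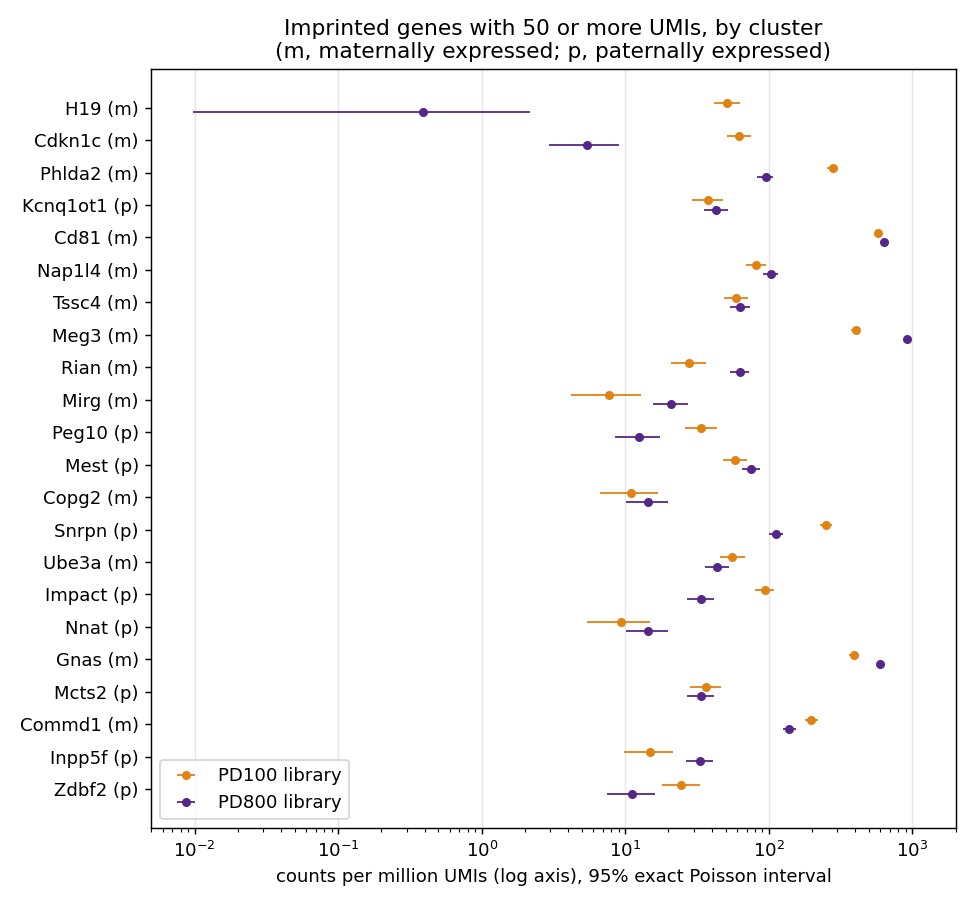
CPM (log axis) of the 22 tested imprinted genes in the PD100 and PD800 libraries, in the order of their clusters, with 95% exact Poisson intervals. The H19 point of PD800 stands for 1 UMI, the intervals of both libraries are well apart for Cdkn1c, Phlda2, Meg3, Snrpn and Impact, and they overlap for Kcnq1ot1, Tssc4, Copg2 and Mcts2.

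In the Dlk1 and Meg3 cluster of chromosome 12 the maternal noncoding RNAs were higher in PD800. Meg3, a long noncoding RNA that restrains growth (chr12:109541001-109571726, plus strand, GRCm38), was counted 735 times in PD100 and 2386 times in PD800. Its level went from 402 CPM (exact Poisson interval 374 to 433) in the former to 924 CPM (888 to 962) in the latter, and the log2 ratio was 1.20 (exact conditional interval 1.08 to 1.32). In PD800 it held the most UMIs of the 49 genes. Rian, which hosts small nucleolar RNAs and microRNAs (chr12:109603940-109661716, plus strand), had 51 PD100 and 162 PD800 UMIs and a log2 ratio of 1.17 (0.71 to 1.65). Mirg, a microRNA host farther along the same strand (chr12:109729764-109749460), had 14 and 54 UMIs and a log2 ratio of 1.45 (0.58 to 2.41). All 3 maternal RNAs of the cluster were thus past 2-fold, by 2.30-fold for Meg3, 2.25-fold for Rian and 2.73-fold for Mirg. The lower ends of the Rian and Mirg intervals lay under 2-fold.

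The paternally expressed genes of this cluster were rare. Dlk1, a membrane protein of the Notch ligand family and the paternal partner of Meg3, had 21 PD100 and 16 PD800 UMIs and a log2 ratio of -0.89 (-1.93 to 0.12). Rtl1, a retrotransposon-derived gene needed in the placenta, had 0 and 2 UMIs, at or under the limit of 3 counts in each library, and no fold was given. None of the 100 other annotated genes within 500 kb of these genes reached 50 UMIs over both libraries. Whether the region around the cluster differed as well was therefore not detectable at this depth.

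Meg3 differed in the number of cells that held it. Of 814 PD100 cells 266 had a Meg3 UMI (32.7%, exact binomial interval 29.5 to 36.0). Of 900 PD800 cells 702 had one (78.0%, 75.1 to 80.7). At an equal depth of 1000 UMIs drawn from every cell, the shares were 22.9% (20.01 to 25.9) and 54.0% (50.7 to 57.3). In the thinned PD100 cells 77.1% had 0 Meg3 UMIs and 14.1% had 1. In the thinned PD800 cells 46.0% had 0 and 31.4% had 1. If the Meg3 UMIs of a library had been spread evenly over its cells in proportion to their depth, 467 PD100 cells and 794 PD800 cells would have held a UMI. The observed numbers were 57.0% and 88.4% of these. Among the cells with a Meg3 UMI the Meg3 level was 1116 CPM in PD100 and 1114 CPM in PD800, a description only, since these cells were picked by their Meg3 UMIs. No cell type known to lack Meg3 was defined in these libraries, so the part of free RNA in the shares was not tested.

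Rian was found with Meg3 in the PD100 cells. Cells with a Meg3 UMI held 38 Rian UMIs (57.7 CPM, 40.8 to 79.2) and the 548 cells without one held 13 (11.1 CPM, 5.93 to 19.03). The log2 ratio of cells with over cells without was 2.37 (1.43 to 3.41), which ranked first of 4773 genes with at least 50 UMIs in that library. Of the 16 imprinted genes ranked this way 1 was at least 2-fold higher beside Meg3, against 0.545% of all ranked genes. Mirg had 9 UMIs in the cells with Meg3 and 5 in those without (13.7 and 4.28 CPM), a log2 ratio of 1.67 (-0.06 to 3.60). In PD800 the levels were closer. Rian was at 64.9 CPM (139 UMIs) in cells with Meg3 and at 52.3 CPM (23 UMIs) in cells without, a log2 ratio of 0.31 (-0.33 to 1.02), and Mirg at 21.5 and 18.2 CPM. There 1 of 15 ranked imprinted genes, Impact, was at least 2-fold higher beside Meg3, against 2.19% of all ranked genes. Its log2 ratio was 1.02 (-0.03 to 2.28) and rested on 8 UMIs in the cells without Meg3. Cells with a Meg3 UMI were also deeper, with medians of 2335 against 2047.5 UMIs in PD100 and 2913 against 2102 UMIs in PD800. With every cell thinned to 1000 UMIs the log2 ratio of Rian was 2.13 in PD100 and 0.07 in PD800. Among PD800 cells with at least 2000 UMIs it was 1.16.

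**Figure D3:**
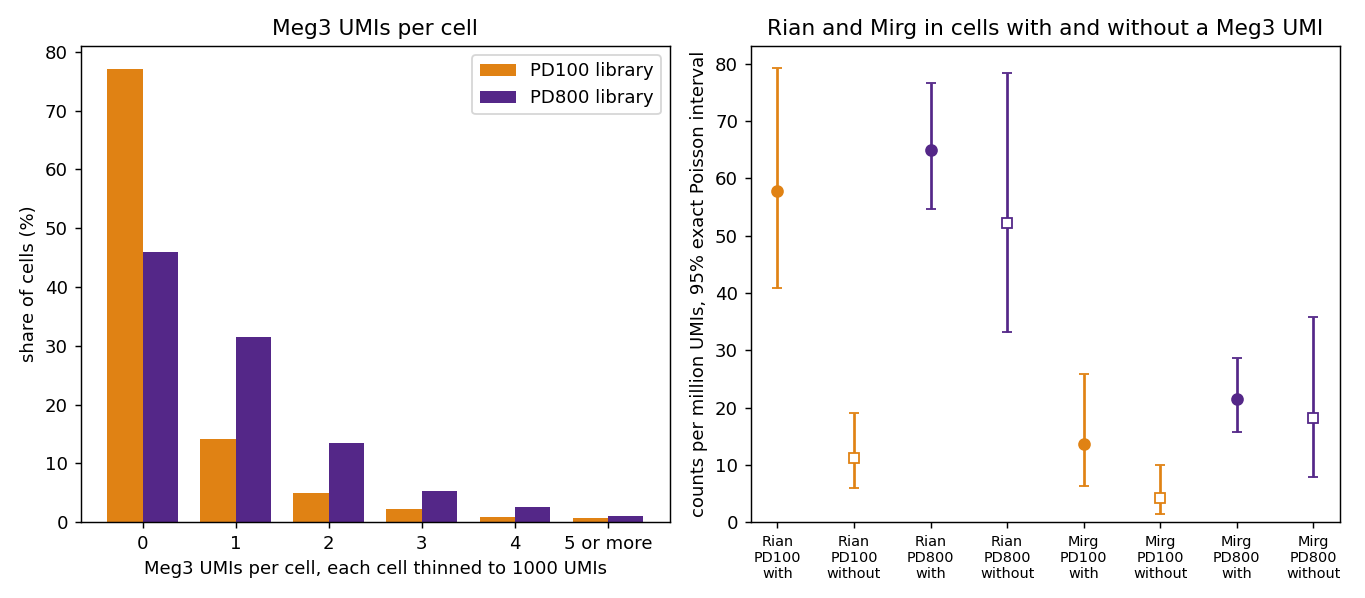
Left, share of cells (%) by their number of Meg3 UMIs after each cell was thinned to 1000 UMIs, in PD100 and PD800. Right, CPM of Rian and Mirg in cells with (filled circles) and without (open squares) a Meg3 UMI at full depth, with 95% exact Poisson intervals. Rian was at 57.7 against 11.1 CPM in PD100 and at 64.9 against 52.3 CPM in PD800.

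In PD100 the stem cell factors Pou5f1 (588 CPM in cells with Meg3 and 551 CPM in cells without) and Zfp42 (541 and 584 CPM) differed by less than their counting error. Dppa3, a naive-state gene, was lower beside Meg3 (22.8 against 50.5 CPM, log2 ratio -1.15, -2.07 to -0.31), and the DNA methyltransferase Dnmt3b was at 112 against 79.6 CPM (0.50, 0.04 to 0.95). Of the ranked imprinted genes 0 were at least 2-fold lower beside Meg3 in PD100, against 1.45% of all ranked genes, and 0 in PD800, against 0.945%. Grb10, an adaptor that dampens insulin and growth factor signalling, had 18 UMIs in the PD100 cells with Meg3 and 7 in those without, a log2 ratio of 2.19 (0.86 to 3.69). It was rare, and it was picked out here after its values were seen.

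In the H19 and Igf2 cluster of chromosome 7 both genes were nearly absent from PD800. H19, a maternal long noncoding RNA that restrains growth (chr7:142575529-142578143, minus strand), was counted 94 times in PD100 and once in PD800, as 1 UMI. The levels were 51.5 CPM (41.6 to 63.0) against 0.387 CPM (0.00981 to 2.16), and the log2 ratio was -7.05 (-12.37 to -4.54). After each cell was thinned to 1000 UMIs no H19 UMI was left in PD800, and the ratio became a bound of -3.73, set by 3 counts in place of 0. Igf2, the paternally expressed growth factor (chr7:142650766-142666816, minus strand), had 13 UMIs and 1 UMI, a log2 ratio of -4.20 (-9.61 to -1.46). Genes of opposite parental expression were thus lower together. The other 2 tested genes of this neighbourhood, Mrpl23 and Ctsd, had log2 ratios of 0.35 and -0.37.

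The H19 UMIs of PD100 sat in few cells. They were found in 29 of 814 cells (3.56%, 2.40 to 5.08), where an even spread would have given 88.2, and 5 cells held 48 of the 94 UMIs, with 16 in 1 cell. In PD800 1 of 900 cells held the only UMI. The 29 cells also held 8 of the 13 Igf2 UMIs of PD100, which is 110 CPM against 2.85 CPM in the other 785 cells, a log2 ratio of 5.26 (3.47 to 7.22). Ascl2, a maternally expressed trophoblast transcription factor of the neighbouring domain, had 10 of its 21 PD100 UMIs there, 137 against 6.27 CPM. Summed over the same cells, the keratins of simple epithelia and trophoblast were high, with Krt18 at 1384 against 173 CPM. Krt8 was at 671 against 111 CPM and Krt7 at 301 against 12.5 CPM. Not every cell held them: Krt18 UMIs were in 14 of the 29 cells (48.3%), against 15.8% of the others. Krt8 UMIs were in 12 (41.4%, against 11.1%) and Krt7 UMIs in 7 (24.1%, against 1.78%). Dnmt3b was at 247 against 85.0 CPM (log2 ratio 1.54, 0.74 to 2.25) and Dppa3 at 82.2 against 38.8 CPM (1.08, -0.41 to 2.28). Of the stem cell factors Pou5f1 was at 521 against 566 CPM and Zfp42 at 425 against 574 CPM, and both intervals of the log2 ratio included 0. Of the 16 ranked imprinted genes 1, Cdkn1c, was at least 2-fold higher beside H19, where 7.06% of all ranked genes were. Its log2 ratio of 1.04 (-0.13 to 2.02) rested on 9 UMIs. Tssc4 (-2.16, -7.47 to 0.35) was 1 of 16 at least 2-fold lower, where 14.5% of all ranked genes were, on 1 UMI in the 29 cells. For every ranked gene 0 UMIs there were set to 3 counts. Rian, with 0 UMIs in the 29 cells and 51 in the others, could thus not be called lower. The median depth of the 29 cells was 2341 UMIs, against 2137 UMIs in the other cells. The part of cells with keratin UMIs in the lower H19 and Igf2 of PD800 was not tested.

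The adjoining Kcnq1ot1 cluster was split. Cdkn1c, the maternally expressed inhibitor of cyclin-dependent kinases p57 (chr7:143458339-143461050, minus strand), was counted 114 times in PD100 and 14 times in PD800. The levels were 62.4 CPM (51.5 to 74.99) against 5.42 CPM (2.97 to 9.10), 11.5-fold lower, or -3.52 on the log2 scale (-4.44 to -2.72). Phlda2, a maternal restrainer of placental growth (chr7:143501545-143503150, minus strand), had 510 and 245 UMIs. Its levels were 279 CPM (256 to 305) against 94.9 CPM (83.4 to 108), or -1.56 on the log2 scale (-1.78 to -1.33). Kcnq1ot1, the paternal noncoding RNA that silences the cluster on its own chromosome and is the counterpart of Cdkn1c, had 69 and 111 UMIs, or 37.8 and 43.0 CPM (log2 ratio 0.19, -0.26 to 0.64). It was at 0.53 relative to the median of all tested genes and at 0.66 with median-of-ratios scaling, so whether it differed depends on the scaling. Cdkn1c and Phlda2 were past 2-fold lower under either scaling.

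The remaining genes of the Kcnq1ot1 cluster are imprinted in some tissues only, apart from Slc22a18. Cd81, a tetraspanin of the cell surface, had 1061 and 1648 UMIs (log2 ratio 0.14, 0.02 to 0.25). Nap1l4, a histone chaperone, had 149 and 266 UMIs (log2 ratio 0.34, 0.04 to 0.64), and Tssc4, a splicing factor, had 108 and 163 UMIs (log2 ratio 0.09, -0.26 to 0.46). These 3 genes differed by less than 2-fold. Ascl2 had 21 PD100 and 3 PD800 UMIs and a log2 ratio of -3.31 (-5.69 to -1.56). Slc22a18, a transporter, had 7 and 16 UMIs and Kcnq1, a potassium channel, 1 and 2.

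Cdkn1c UMIs were found in 62 of 814 PD100 cells (7.62%, 5.89 to 9.66), where an even spread would have given 106 cells. In PD800 9 of 900 cells (1.00%, 0.458 to 1.89) held its 14 UMIs, and 1 cell held 5 of them. The 62 PD100 cells had more H19 than the other 752 cells (159 against 41.8 CPM, log2 ratio 1.93, 1.19 to 2.61), more Phlda2 (543 against 256 CPM, 1.09, 0.73 to 1.43) and more Impact (185 against 85.4 CPM, 1.12, 0.48 to 1.71). These were 3 of 16 ranked imprinted genes at least 2-fold higher beside Cdkn1c, against 3.1% of all ranked genes. Another 2, Rian (-1.14, -4.23 to 0.79) and Mcts2 (-1.55, -4.63 to 0.36), were at least 2-fold lower, against 9.87% of all ranked genes, each on 2 UMIs in the 62 cells. The 24 H19 UMIs among them lay in 4 cells. Krt18 was at 66.2 CPM in the cells with Cdkn1c and at 236 CPM in those without (log2 ratio -1.83, -2.90 to -0.94), the reverse of its order by H19. Krt7 kept its order by H19, at 112 against 16.1 CPM (2.80, 1.84 to 3.73), but its 17 UMIs there lay in 4 of the 62 cells. Krt8 was at 92.6 against 137 CPM (-0.56, -1.46 to 0.21). The cells with and without Cdkn1c had median depths of 2291 and 2122 UMIs. Phlda2 was more widely present, in 269 of 814 PD100 cells (33.0%) and 168 of 900 PD800 cells (18.7%), and in 21.5% and 9.44% after thinning to 1000 UMIs.

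Uneven spread over cells was also more common among all genes of PD100 than of PD800. Fewer cells than 75% of an even spread held 9 of the 17 imprinted genes with at least 50 UMIs in PD100, against 24.9% of all such genes, and 0 of 16 in PD800, against 4.37%. The bound of 75% was set after these values had been seen, and the count of 9 depends on it. It lies just above the PD100 median of the 17 genes, which was 74.6%, against 79.2% over all such genes. In PD800 the medians were 85.7% and 84.6%. H19 was the most uneven of the 17 in PD100, with 32.9% of the cells of an even spread, followed by Meg3 with 57.0% and Cdkn1c with 58.8%. Peg10 and Snrpn, at 87.5% and 87.4%, were spread most evenly.

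**Figure D4:**
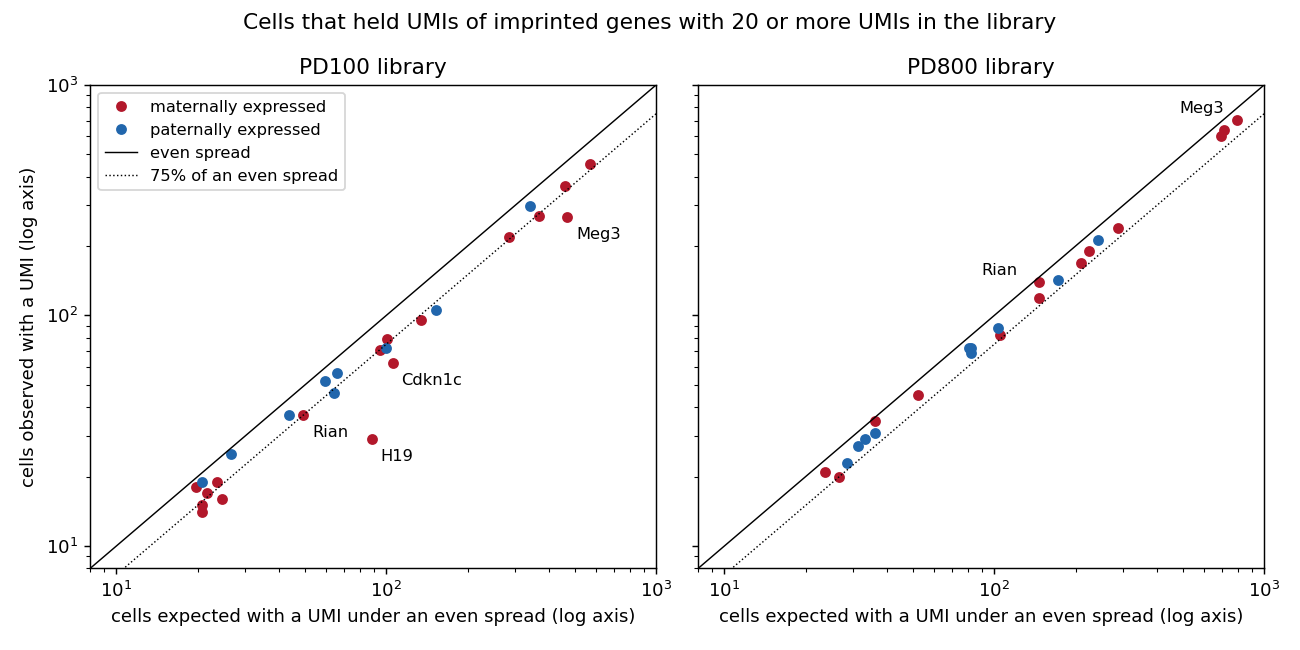
Cells with a UMI (log axis) against the number an even spread by depth would give (log axis), for imprinted genes with at least 20 UMIs in the PD100 (left) or PD800 (right) library. In PD100 H19, Cdkn1c and Meg3 fall farthest below the dotted line at 75% of an even spread, and in PD800 all points lie above it.

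The Snrpn cluster of chromosome 7, which corresponds to the human Prader-Willi and Angelman region, was lower at its most counted gene. Snrpn, a paternally expressed spliceosomal protein (chr7:59982495-60140219, minus strand), was counted 458 times in PD100 and 290 times in PD800, or 251 CPM (228 to 275) against 112 CPM (99.8 to 126). Its log2 ratio was -1.16 (-1.38 to -0.94). A UMI was present in 298 of 814 PD100 cells (36.6%) and 213 of 900 PD800 cells (23.7%). Snurf shares its first exons with Snrpn and had 1 and 3 UMIs. Gm38393, which is not among the 49, overlaps both on the same strand. It had 84 PD100 and 113 PD800 UMIs (log2 ratio -0.07, -0.49 to 0.35). The division of reads among these genes is uncertain. Gm38393 was not past 2-fold, so the Snrpn call depends on this division. The call was not tested with these genes counted together. Ube3a, a ubiquitin ligase imprinted in neurons, had 102 and 113 UMIs (log2 ratio -0.35, -0.75 to 0.05), close to the median of all tested genes. The antisense transcript Snhg14, which overlaps Ube3a and starts near Snrpn, had 24 PD100 and 187 PD800 UMIs and a log2 ratio of 2.46 (1.85 to 3.14). It is no member of the 49 and was named after its values were seen. Whether counting used strand is not stated, so reads of Ube3a and Snhg14 cannot be told apart with certainty. The same holds for the overlapping members on opposite strands, Mest and Copg2, Nnat and Blcap, Gnas and Nespas, Commd1 and Zrsr1, Igf2r and Airn, and Kcnq1 and Kcnq1ot1. The paternal genes farther along were rare: Ndn, a melanoma antigen family protein, had 13 and 34 UMIs (log2 ratio 0.89, -0.07 to 1.93) and the ubiquitin ligase Mkrn3 had 5 and 16 (1.18, -0.34 to 2.98). Magel2 and Peg12 had 4 and 3 and 0 and 1 UMIs.

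Of the single-gene loci Impact and Zdbf2 were lower and Inpp5f higher. Impact, a paternally expressed inhibitor of the amino acid sensor GCN2 (chromosome 18), was counted 171 times in PD100 and 87 times in PD800, or 93.6 CPM (80.1 to 109) against 33.7 CPM (27.0 to 41.6), which is -1.47 on the log2 scale (-1.86 to -1.09). Zdbf2, a paternally expressed zinc finger gene of chromosome 1, had 45 and 29 UMIs (log2 ratio -1.13, -1.86 to -0.43). Inpp5f, an inositol phosphatase with a paternally expressed isoform (chromosome 7), had 27 and 85 UMIs (log2 ratio 1.16, 0.52 to 1.84). It was the only paternally expressed gene called higher, joined by Nnat with median-of-ratios scaling. Mcts2, a retrogene within an intron of H13, had 67 and 87 UMIs (log2 ratio -0.12, -0.60 to 0.36). Grb10 had 25 and 4 UMIs (log2 ratio -3.14, -5.13 to -1.61), and Plagl1, a paternally expressed zinc finger regulator of other imprinted genes, had 10 and 4 (-1.82, -3.95 to -0.03). Nap1l5 had 2 UMIs and 1 UMI.

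At the remaining loci the partners are given side by side. Peg10, a retrotransposon-derived paternal gene needed for the placenta (chr6:4747306-4760517, plus strand), had 62 and 32 UMIs (log2 ratio -1.45, -2.12 to -0.82). Sgce, a sarcoglycan transcribed away from it, had 15 and 12 UMIs (-0.82, -2.05 to 0.37), and the maternal genes Ppp1r9a and Asb4 of that cluster had 13 and 27 UMIs and 2 UMIs and 1 UMI. Mest, a paternal gene of the hydrolase fold, had 107 and 195 UMIs (log2 ratio 0.37, 0.02 to 0.72) and its overlapping partner Copg2, a coat protein subunit, 20 and 37 UMIs (0.39, -0.43 to 1.25). Nnat, a paternal proteolipid, had 17 and 37 UMIs (0.62, -0.24 to 1.54), and Blcap, in whose intron it lies, 22 and 24 UMIs (-0.37, -1.27 to 0.53). Gnas, which codes for the stimulatory G protein alpha subunit, had 717 and 1530 UMIs (0.59, 0.47 to 0.72), and its antisense RNA Nespas 5 and 15. Commd1 had 361 and 358 UMIs (-0.51, -0.73 to -0.30), and Zrsr1, the paternal retrogene in its intron, 8 and 10.

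The rarest pairs allowed few statements. Igf2r, the maternal receptor that clears IGF2, had 24 and 16 UMIs (log2 ratio -1.08, -2.09 to -0.11), and its antisense silencer Airn 1 UMI and 0. Peg3, a paternal zinc finger protein, had 12 and 10 UMIs (-0.76, -2.13 to 0.57), Usp29 8 and 9, and the maternal gene Zim1 of that cluster 2 and 2. Trappc9 had 21 and 19 UMIs (-0.64, -1.62 to 0.32) and Peg13, the paternal RNA within it, 2 UMIs and 1 UMI. Of the 27 imprinted genes under 50 UMIs 13 had at least 20, and 9 were at or under the limit of 3 counts in both libraries. That limit was 1.64 CPM in PD100 and 1.16 CPM in PD800.

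Genes around the imprinted loci were described for comparison. Of 717 other genes centred within 500 kb of an imprinted gene 62 were tested, with 8 called higher and 8 lower and a median log2 ratio of -0.36 (-0.57 to -0.21), near that of all tested genes. Of the 28 genes listed under imprint maintenance 25 were tested, with a median of -0.28 (-0.74 to -0.08). Of these, 1 was called higher and 4 lower, beside 9.22% and 16.9% of all tested genes. The list mixes functions, since it also holds Tet1, Tet2 and Tet3, which oxidise 5-methylcytosine. Relative to the median of all tested genes, the neighbours had 11 called higher and 4 lower, and the imprint maintenance genes had 1 higher and 2 lower, without Dnmt3a and Ehmt1 (13.9% and 7.79% of all tested genes). Tet2, the gene of the list called higher, had 13 PD100 and 61 PD800 UMIs (log2 ratio 1.73, 0.85 to 2.72). Dppa3, which protects maternal methylation in the zygote, had 74 and 7 UMIs (-3.90, -5.26 to -2.79). Dnmt3b and Dnmt3a, the de novo DNA methyltransferases, had 167 and 50 UMIs (-2.24, -2.72 to -1.78) and 145 and 102 UMIs (-1.01, -1.39 to -0.63). Ehmt1, a histone methyltransferase, had 94 and 53 UMIs (-1.33, -1.84 to -0.82). Zfp57 was rare, with 20 and 23 UMIs, and Trim28 had 1201 and 1187 UMIs (-0.52, -0.63 to -0.40). Setdb1 had 46 and 86 UMIs (0.40, -0.13 to 0.95).

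Cells with endoderm markers held few of the UMIs at issue. In PD100 38 cells had at least 10 endoderm marker UMIs, and in PD800 0 had (28 PD100 and 5 PD800 cells had 5 to 19). These 38 cells held 4.44% of the UMIs of imprinted genes in PD100 and 4.80% of all UMIs, at a median depth of 2314 UMIs. Of H19 they held 3 of 94 UMIs, of Cdkn1c 0 of 114, of Phlda2 3 of 510 and of Snrpn 1 of 458. Gnas was high in them, at 902 against 367 CPM (log2 ratio 1.30, 0.94 to 1.64), and Cd81 was at 867 against 567 CPM. Meg3 was at 194 against 413 CPM, with a UMI in 8 of the 38 cells. Without these cells the log2 ratio was -7.08 for H19, -3.60 for Cdkn1c, -1.62 for Phlda2 and 1.16 for Meg3.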

How the data were processed

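Single-cell RNA-seq libraries of Terc-/- mESCs, 1 at PD100 and 1 at PD800, were grouped by the labels. Raw UMI counts were deposited, a table of barcodes by genes per library, produced by the authors' inDrops pipeline run (default settings, GRCm38 transcriptome). The annotation release and any use of strand are not given in the sources used here. The cell filter of the study (1000 counts, 20% mitochondrial) was applied, which left out 477 PD100 and 766 PD800 barcodes. The study reports somewhat fewer cells of each time point after its filter, so the sets of cells are not identical. No doublets were removed. UMIs were summed per library and scaled to CPM. Sums were given exact Poisson, ratios exact conditional (Clopper-Pearson) and shares exact binomial 95% intervals, which cover counting error only, and medians order-statistic intervals. No fold was given where both libraries were at or under 3 counts. With 1 library per group no test was made. Calls were limited to genes that reached 50 UMIs when the libraries were added. Every imprinted gene with 20 UMIs or with a partner was named. The genes, their alleles (general knowledge) and all lists were chosen with earlier results of these data known, and Meg3, H19 and Cdkn1c were picked to split cells after their values were seen. Thinning to 1000 UMIs used seed 1. Positions came from a GENCODE annotation of GRCm38 and promoters from RefSeq. Scripts were tested on simulated data and ran in Python 3.11.15, NumPy 2.4.6, SciPy 1.17.1, pandas 2.3.3 and matplotlib 3.10.9. Alternatives covered the cell filter, scaling, depth, the minimum of UMIs and windows.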

Additional observations from a re-analysis of the deposited data

Results flagged for a closer look

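The barcodes left out by the cell filter also held UMIs of imprinted genes, above the level that 3 counts would give (12.2 CPM in PD100 and 6.54 CPM in PD800). The 477 PD100 barcodes held 639 such UMIs, 2589 CPM (2392 to 2798) against 2911 CPM in the cells kept, with Meg3 at 190 CPM (140 to 253) against 402 CPM and H19 at 72.9 CPM (43.2 to 115) against 51.5 CPM. The 766 PD800 barcodes held 1338, 2919 CPM (2765 to 3080) against 3170 CPM, with Meg3 at 707 CPM (632 to 788) against 924 CPM.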

How the results depend on the processing

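Ratios of the 22 tested imprinted genes were recomputed under 8 alternatives each. Of 176 values 160 moved by less than their counting interval, 16 moved by more and none of the called genes changed direction, whereas the uncalled Copg2, Ube3a and Mcts2 changed sign under at least 1. Of the 11 called genes 8 stayed past 2-fold under all 8 alternatives. With median-of-ratios scaling Snrpn was at -0.69, Zdbf2 at -0.66 and Peg10 at -0.98. With thinned cells Peg10 was at -0.79, Zdbf2 at -0.88 and H19 at a bound of -3.73. Zdbf2 was also at -0.99 with at least 2000 UMIs per cell and at -0.89 without the barcode filter, so its call held under 4 of 8 alternatives. Imprinted genes called higher numbered 2 of 15 with thinned cells (9.48% of all tested genes) and 2 of 12 with at least 200 UMIs (10.4%). Those called lower numbered 4 of 22 with median-of-ratios scaling (5.78% of all tested genes) and 4 of 15 with thinned cells (16.2%). They numbered 3 of 12 with at least 200 UMIs (12.5%) and 12 of 40 with at least 1 UMI (23.2%). The median of the imprinted genes turned to -0.12 with at least 20 UMIs and -0.34 with at least 1 UMI. Median-of-ratios scaling moved the median of the imprint maintenance genes to 0.19 and of neighbouring genes to 0.11. A bound of 5 endoderm marker UMIs gave 8.91% of the UMIs of imprinted genes in PD100, beside 9.47% of all UMIs. Rian in PD800 cells by Meg3 was at 1.16 with at least 2000 UMIs per cell, an alternative chosen after seeing the data. Thinned cells and a higher minimum leave fewer genes tested (15 and 12). Otherwise the cause was not tested. No paired analysis was possible because each group had 1 library, and no library could be left out. Genes under 50 UMIs rest on few molecules.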
